A study of Mus musculus with 18 samples.

Results

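Liver tumors driven by 2 forms of YAP were compared in 6 mouse tumors that GEO's labels call mixed. The 3 YAP-S-Mixed tumors (numbers 2, 7 and 9) received myr-AKT, an activated form of the kinase AKT, with YAP carrying S127A. The 3 YAP-SY-Mixed tumors (3, 5 and 9) received myr-AKT with YAP carrying S127A/Y357F. All 6 tumors, and the 6 tumors labelled cholangiocarcinoma (CCA) that serve here as the second contrast, thus carry myr-AKT and the S127A change, and Y357F is what the groups were made to differ by. The 6 tumors were taken by their genotype labels, out of 18 samples in the series. The sample description of YAP-SY tumor 3 begins with Mut1 and those of YAP-SY tumors 5 and 9 with Mutant, and the labels do not say what that difference means. RNA was taken from tumor nodules. The labels give no age, strain, delivery route or time of day of collection, and do not say whether nodules came from separate animals, so a p-value measures the spread between nodules.

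YAP is a transcriptional co-activator that the Hippo kinases hold in the cytoplasm. With TEAD partners in the nucleus it switches on genes of growth, matrix and cell shape, and in liver it pushes cells towards bile duct fate. S127 is the serine through which the Hippo kinases retain YAP, and Y357 is a tyrosine phosphorylated by Src family and related kinases. The series title poses the question for this contrast, which is whether the tyrosine matters to YAP in hepatocytes as it does in bile duct cells.

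In mixed tumors edgeR found no gene that separated YAP-SY from YAP-S beyond the spread between nodules. Of 18318 genes tested with edgeR's quasi-likelihood test and Benjamini-Hochberg adjustment, 0 passed the threshold of 0.05 (percent called 0), and the smallest adjusted p was 0.665. An unadjusted p under 0.05 was found in 551 genes (3.01% of those tested), of which 287 were higher (1.57%) and 264 lower (1.44%) in YAP-SY. limma-voom also called 0 genes and counted 1759 with an unadjusted p under 0.05. DESeq2's Wald test called 11, which are given below. In CCA tumors the same fit called 7171 genes (39.1%).

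The 6 mixed tumors did not sort by genotype in their pairwise likeness or on the first principal component. Over the 11145 genes with a mean of at least 5 CPM (counts scaled to a common library size), log2 CPM correlated by 0.9593 to 0.9801 in the 9 pairs that cross the groups and by 0.934 to 0.9791 in the 6 pairs within a group. Both ranges are taken over genes, and genes are no independent replicates. The closest pair, at 0.9801, joined YAP-S tumor 2 and YAP-SY tumor 3, and the most distant, at 0.934, joined YAP-SY tumors 5 and 9. The first principal component of the 6 tumors, with 40% of the variance, had YAP-SY tumor 5 at 34.3 and YAP-SY tumor 9 at -29, while the other tumors lay between -4.67 and 0.924. The third component, with 17% of the variance, had the YAP-S tumors at 12.8, 10.5 and 12.3 and the YAP-SY tumors at -15.2, -8.85 and -11.6. It was picked out of 5 components after their values were seen, so nothing is read from its separation of the groups. Libraries held 30656499 to 130035221 counts, the largest being YAP-SY tumor 9. Leaving out YAP-SY tumor 9 or YAP-SY tumor 5 raised the number of genes with an unadjusted p under 0.05 to 1362 or 865, still with 0 called.

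The fit bounded most effects closely. Among the genes of at least 5 CPM the median SE of the log2 fold change was 0.18, and the 95% interval reached 0.39 (median) to either side on the log2 scale, or 1.31-fold. For 10251 of the 11145 genes (92.0%) that interval lay within a 2-fold change either way. The median absolute log2 fold change was 0.12 in mixed and 0.45 in CCA tumors. The 2 groups of 3 did not overlap in 1530 genes (8.35% of those tested), 788 with all YAP-SY tumors higher (4.3%) and 742 with all lower (4.05%). In CCA tumors that share was 52.6%.

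**Figure D1:**
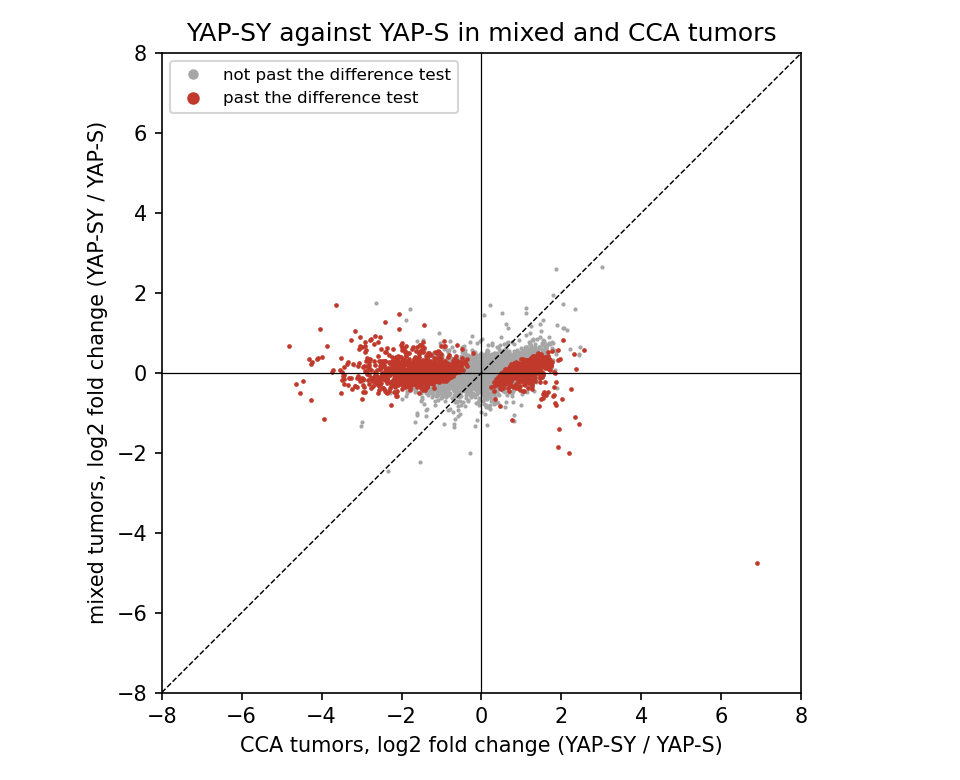
Each point is a gene of at least 5 CPM, with its log2 fold change (YAP-SY over YAP-S) in CCA tumors on the x axis and in mixed tumors on the y axis; red points passed the test of the difference and the dashed line marks equal effects. The cloud is wide along the CCA axis and narrow along the mixed axis, where the median absolute value is 0.12 against 0.45.

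The mouse genes Yap1 and Akt1 were read first. Yap1 (ENSMUSG00000053110), which lies on chromosome 9 of mm10 from 7931999 to 8004596, measured 99.8, 110 and 114 CPM in the YAP-S tumors and 90.2, 73.6 and 87.4 CPM in the YAP-SY mixed tumors. All YAP-SY tumors lay below all YAP-S tumors, but Yap1 did not pass (log2 fold change -0.37, SE 0.13, adjusted p 0.999). Akt1 was at 384, 931 and 256 CPM in the YAP-S tumors and 416, 520 and 380 CPM in the YAP-SY tumors, with the widest spread among the YAP-S tumors (-0.26, SE 0.43). RNA from the introduced YAP and AKT cannot be told apart from that of the animal's own genes in these counts. How much of the introduced RNA was counted at these genes was not tested. A single base change is not visible in the counts either, so neither gene checks the labels.

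Among the tested genes were the hepatocyte and bile duct genes by which the label mixed can be read. Alb, the main serum protein of hepatocytes, was between 54170 and 80600 CPM in the 6 tumors. Spp1, the bile duct protein osteopontin, was between 4088 and 16190 CPM. Sox9, a regulator of bile duct fate, was between 23.9 and 65.8 CPM. Krt19, a bile duct keratin, ranged from 3.94 to 43.2 CPM, with the lowest values in 1 tumor of each group (YAP-S tumor 2 at 4.72 and YAP-SY tumor 5 at 3.94). Both kinds of gene were thus detected in all 6 tumors. In these bulk samples fewer cells of a type and less RNA per cell cannot be told apart.

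YAP targets did not separate the groups. Of 27 genes listed as YAP-TEAD targets 26 passed the low-count filter; 10 lay above and 16 below 0, with a median log2 fold change of -0.08 against 0.02 over all tested genes. Ctgf, a matrix protein often used to read YAP activity, was at 75.7, 137 and 136 CPM in the YAP-S tumors and 101, 84.6 and 90.3 CPM in the YAP-SY tumors (log2 fold change -0.34, 95% interval -0.90 to 0.22). Cyr61, a related matrix protein, was at 62.9, 68.9 and 86.8 CPM against 62.8, 71.8 and 53.8 CPM (-0.21, -0.59 to 0.16). Ankrd1, a nuclear cofactor and direct target, was at 45, 70.1 and 68.6 CPM against 78.4, 91.6 and 45.4 CPM (0.23, -0.49 to 0.95). For all 3 genes the groups overlapped.

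Only Nt5e, the surface enzyme CD73, had groups that did not overlap among the 26 targets (against 8.35% of all genes). Nt5e was at 5.05, 5.55 and 5.96 CPM in the YAP-S tumors and 9.31, 6.5 and 10.3 CPM in the YAP-SY tumors (0.66, SE 0.20). In CCA tumors 17 of the 26 fell and 0 rose (background 20.8% lower and 18.3% higher), with a median of -1.17. The difference between the effects in mixed and CCA tumors passed in 14 of the 26, all above 0, against 10.2% of all genes above 0 and 5.02% below. Ankrd1 gave a difference of 3.58 (SE 0.49, adjusted p 0.00292), Ctgf of 2.24 (SE 0.37, adjusted p 0.00443) and Cyr61 of 1.26 (SE 0.24, adjusted p 0.00783).

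The Hippo pathway list (median -0.01) and the list with the kinases of the tyrosine had medians near 0. Among 19 Hippo genes 3 had groups apart (against 8.35% of all genes), Yap1 and Nf2 lower and Wwtr1 higher; Nf2, an upstream activator of the Hippo kinases, was at 60.6, 74.7 and 61.2 CPM in the YAP-S tumors and 50.3, 55.4 and 46.8 CPM in the YAP-SY tumors (-0.37, SE 0.15). Wwtr1, which encodes the YAP relative TAZ, was slightly higher in all YAP-SY tumors, at 40.5, 44.3 and 42.2 CPM against 34, 40.2 and 40.2 CPM (0.15, SE 0.13). An unadjusted p under 0.05 in edgeR was found in 2 of the 19, both lower, against 1.44% of all genes lower. Of 15 Src family kinases and tyrosine phosphatases 0 had groups apart, with a median of 0.01. Src itself was at 21, 26.4 and 22.1 CPM in the YAP-S tumors and 15.4, 29.2 and 19.6 CPM in the YAP-SY tumors (-0.11, 95% interval -0.72 to 0.50), and its effect differed from that in CCA by 1.91 (adjusted p 0.0111).

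**Figure D2:**
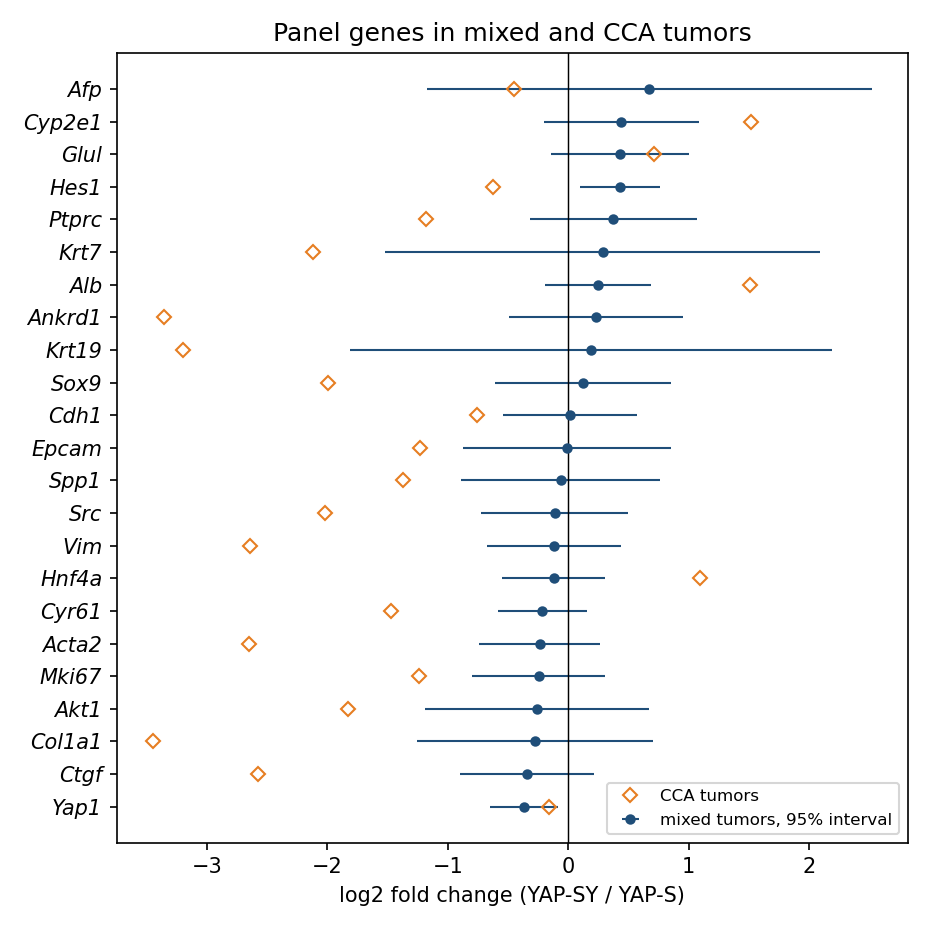
Log2 fold change (YAP-SY over YAP-S, x axis) of the 23 panel genes in mixed tumors (filled circles with the 95% interval of the fit) and in CCA tumors (open diamonds, no interval drawn). In mixed tumors the intervals of Yap1 and Hes1 leave out 0 and the others cover it, and none of the 23 passed after adjustment.

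As a list, bile duct genes were level between the groups. Of 23 bile duct markers 0 had groups apart (against 8.35% of all genes). The median was -0.06, against -1.55 in CCA tumors, where 18 fell (against 20.8% of all genes). Single members ran from -1.05 to 1.22 in mixed tumors, and 1 was higher with an unadjusted p under 0.05 in edgeR. Their summed level was 11230, 11680 and 10910 CPM in the YAP-S tumors and 8752, 18160 and 5486 CPM in the YAP-SY tumors, so YAP-SY tumors 5 and 9 lay on opposite sides of all YAP-S tumors. Sox9 had a log2 fold change of 0.12 (95% interval -0.61 to 0.86), and its effect differed from that in CCA by 2.12 (adjusted p 0.0154). Krt19 (0.19, -1.81 to 2.19) and Krt7 (0.29, -1.52 to 2.09) were too variable to bound within a 2-fold change. The difference passed for 7 of the 23, all above 0 (against 10.2% of all genes).

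The genes of Notch signalling, which directs bile duct fate, had a median near 0, with 10 of 16 above 0. Of 16 Notch pathway genes 2, Hes1 and Maml1, were higher without overlap (against 4.3% of all genes). Hes1, a transcriptional repressor and Notch target, was at 14.4, 13.3 and 14.2 CPM in the YAP-S tumors and 18.1, 23 and 15.5 CPM in the YAP-SY tumors (0.43, SE 0.15, adjusted p 0.999). In CCA tumors Hes1 fell (-0.63, adjusted p 0.00679), and the difference of 1.05 passed (adjusted p 0.00981). The list's median was 0.05 in mixed and -1.15 in CCA tumors.

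Stromal genes differed between mixed tumors more than between genotypes. Of 22 fibroblast and stellate cell markers 20 lay below 0 and 0 had groups apart (against 8.35% of all genes), with a median of -0.22. Col1a1, which encodes a chain of fibrous type I collagen, stood at 57.2, 134 and 79.1 CPM in the YAP-S tumors and 42.2, 71.8 and 109 CPM in the YAP-SY tumors (-0.28, SE 0.45). Acta2, the actin of activated fibroblasts, was at 28.9, 63.6 and 48.6 CPM against 38.9, 38.7 and 42.3 CPM (-0.23, SE 0.23). In CCA 19 of the 22 fell (median -2.07, against 20.8% of all genes). The difference passed for 16, all above 0 (against 10.2% of all genes), including Col1a1 (3.17), Acta2 (2.42) and, from the panel, the intermediate filament gene Vim (2.52).

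Hepatocyte genes were even or slightly higher in YAP-SY. Alb was at 54170, 63690 and 59280 CPM in the YAP-S tumors and 80600, 64340 and 65610 CPM in the YAP-SY tumors, apart by a small margin (0.25, SE 0.20). Hnf4a, the central transcription factor of hepatocytes, was at 540, 434 and 566 CPM against 505, 355 and 555 CPM (-0.12, 95% interval -0.55 to 0.31). The 20 secreted hepatocyte proteins split evenly, 10 above and 10 below 0, with a median of -0.01, while in CCA 18 of them rose (against 18.3% of all genes). The effect differed from that in CCA by -1.26 for Alb (adjusted p 0.0154) and by -1.21 for Hnf4a (adjusted p 0.0165).

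**Figure D3:**
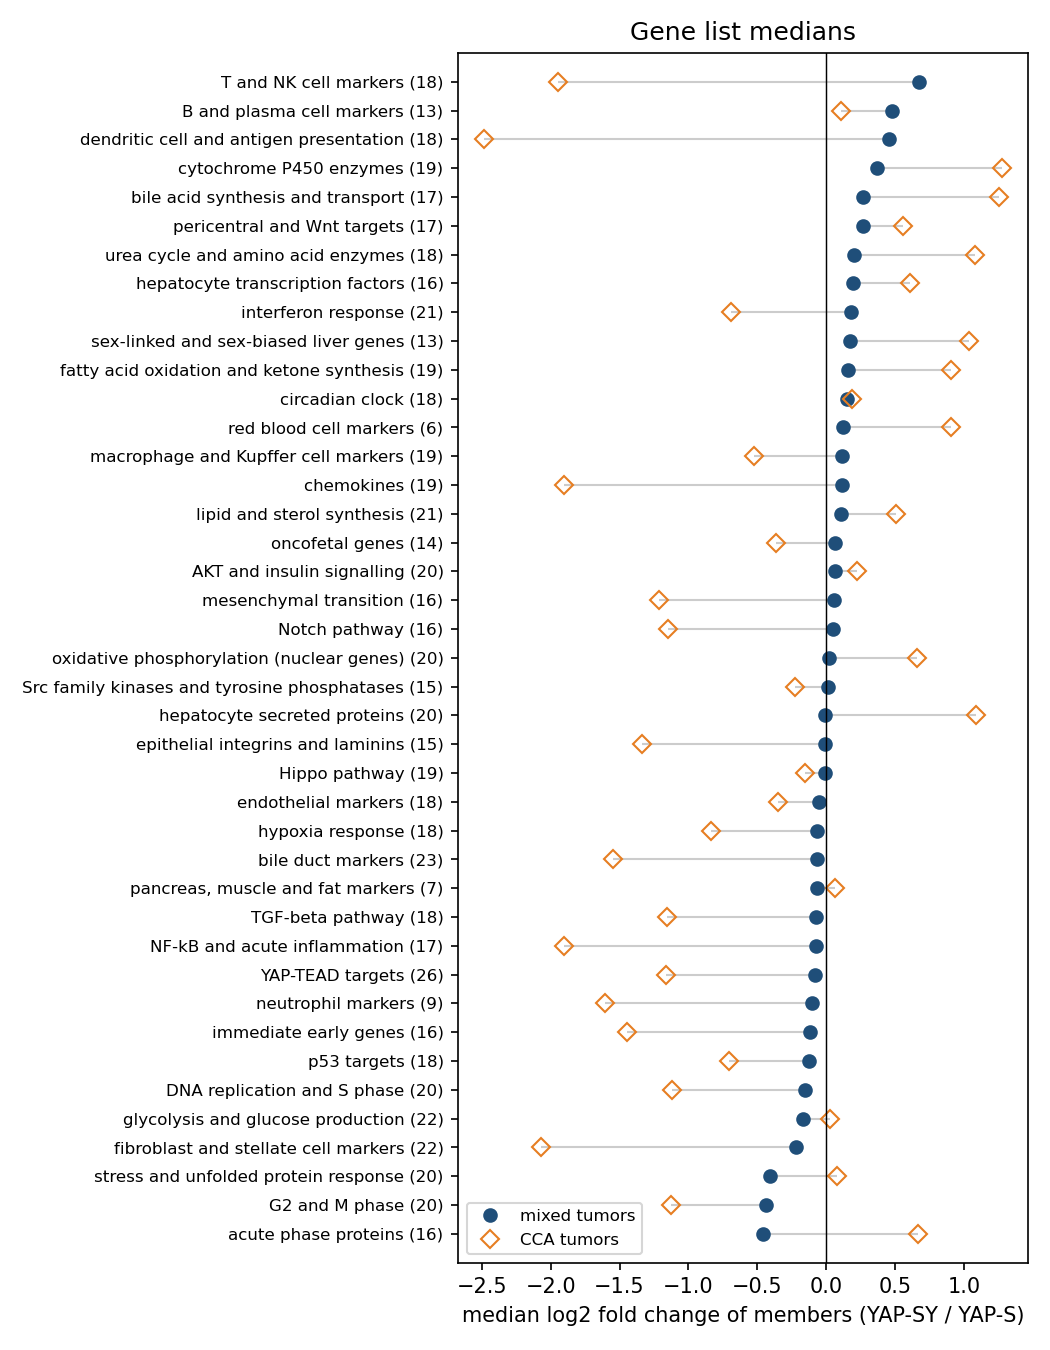
Median log2 fold change (YAP-SY over YAP-S, x axis) of 41 gene lists, with the number of members that passed the low-count filter in parentheses; filled circles are mixed tumors and open diamonds CCA tumors. The mixed medians run from -0.46 to 0.68, and 1 list lies past 0.5 either way against 31 in CCA.

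Over 41 gene lists, 698 distinct members passed the filter. Their groups did not overlap in 63 (9.03%), near the 8.35% of all genes, and 0 were called. In 9 lists no member had groups apart. The list whose median was highest in mixed tumors held the T and NK cell markers, with 17 of 18 members above 0, a median of 0.68 and no member apart. Their summed level was 11.9, 30.7 and 19.7 CPM in the YAP-S tumors and 16.3, 54.9 and 28 CPM in the YAP-SY tumors, highest in YAP-SY tumor 5. Of the dendritic cell and antigen presentation genes 18 of 18 lay above 0, with a median of 0.46 and 1 apart (B2m, the light chain of class I molecules). Their summed level was 2825, 3225 and 3276 CPM in the YAP-S tumors and 2960, 4682 and 4442 CPM in the YAP-SY tumors, so YAP-SY tumors 5 and 9 lay above all YAP-S tumors and YAP-SY tumor 3 among them. Ciita, the master activator of class II genes, was at 26.5 CPM in the YAP-SY tumor 5 and at 3.69 to 11.8 CPM in the other 5. Ptprc, carried by all white blood cells, was at 74.1 CPM in the YAP-SY tumor 5 and at 31.7 to 40.9 CPM in the others, and its log2 fold change of 0.37 became -0.15 without that tumor.

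The clock genes had more members apart than any other list. The circadian clock is a loop in which CLOCK or NPAS2 with ARNTL (BMAL1) drives repressors of the Per, Cry and Nr1d families, which in turn shut it down; Dbp, Tef and Hlf are output factors, and Nfil3 opposes them. In 10 of 18 clock genes (55.6%, against 8.35% of all genes) the groups did not overlap, 6 with YAP-SY higher and 4 with YAP-SY lower; under library size alone it was 8. An unadjusted p under 0.05 was found in 8 (44.4% against 3.01%), and 0 passed the threshold. The 8 became 2 without YAP-SY tumor 9, 5 without YAP-S tumor 2 and 5 with limma-voom.

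The Nr1d repressors, Cry2 and the output factors were at higher levels in YAP-SY. Nr1d1, which encodes the repressor REV-ERBalpha (chromosome 11, 98767932 to 98775333), was at 6.86, 13.8 and 24.5 CPM in the YAP-S tumors and 34.6, 49.5 and 88.9 CPM in the YAP-SY tumors (1.95, SE 0.61, 3.86-fold). Its relative Nr1d2 was at 21.2, 27.3 and 42.2 CPM against 65.8, 62.5 and 78.3 CPM (1.19, SE 0.38). Dbp was at 1.01, 1.76 and 2.43 CPM against 2.5, 9.19 and 19.3 CPM (2.61, SE 0.89). YAP-SY tumor 3 held barely more Dbp than YAP-S tumor 9. Tef was at 41.1, 49.3 and 47.9 CPM against 59.4, 79 and 110 CPM (0.84, SE 0.32). Hlf was at 24.5, 24.7 and 24.1 CPM against 30.1, 29.8 and 31.8 CPM (0.32, SE 0.16), and Cry2, a repressor, was higher by a narrow margin (0.24, SE 0.29).

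The activators Arntl and Npas2, with Cry1 and Nfil3, were at lower levels, while the activator Clock overlapped between the groups. Arntl was at 47.5, 41.4 and 43 CPM in the YAP-S tumors and 40.6, 26.8 and 20.1 CPM in the YAP-SY tumors (-0.60, SE 0.31). Npas2 was at 15.5, 13.2 and 12.8 CPM against 9.61, 7.57 and 4.71 CPM (-0.93, SE 0.36). Cry1, a repressor, was at 21.8, 23.7 and 20.3 CPM against 15.7, 12.1 and 9.13 CPM (-0.84, SE 0.33). Nfil3 was at 65.5, 46.2 and 78.4 CPM against 45.6, 28.8 and 26.7 CPM (-0.91, SE 0.35). In all 4, and at the opposite end in Nr1d1, Nr1d2, Dbp, Tef, Hlf and Cry2, YAP-SY tumor 9 held the most extreme value. In the other 8 clock genes, among them Per1, Per2, Per3 and Clock, the groups overlapped. In CCA tumors 5 of the 18 clock genes rose (against 18.3% of all genes) and 0 fell. Nr1d1 (1.79, adjusted p 0.0327), Nr1d2 (1.89, adjusted p 0.0025), Tef (1.40, adjusted p 0.00476) and Hlf (1.43, adjusted p 0.000124) rose there, as did Clock (0.77, adjusted p 0.00385), which overlapped in mixed tumors. Dbp (1.85, adjusted p 0.101), Cry2 (0.43, adjusted p 0.256), Arntl (-0.15), Cry1 (-0.41), Npas2 (-0.84) and Nfil3 (0.22) did not pass. The labels do not say whether CCA and mixed nodules shared animals or collection times. For the clock genes, genotype and time of collection therefore cannot be told apart in either contrast.

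**Figure D4:**
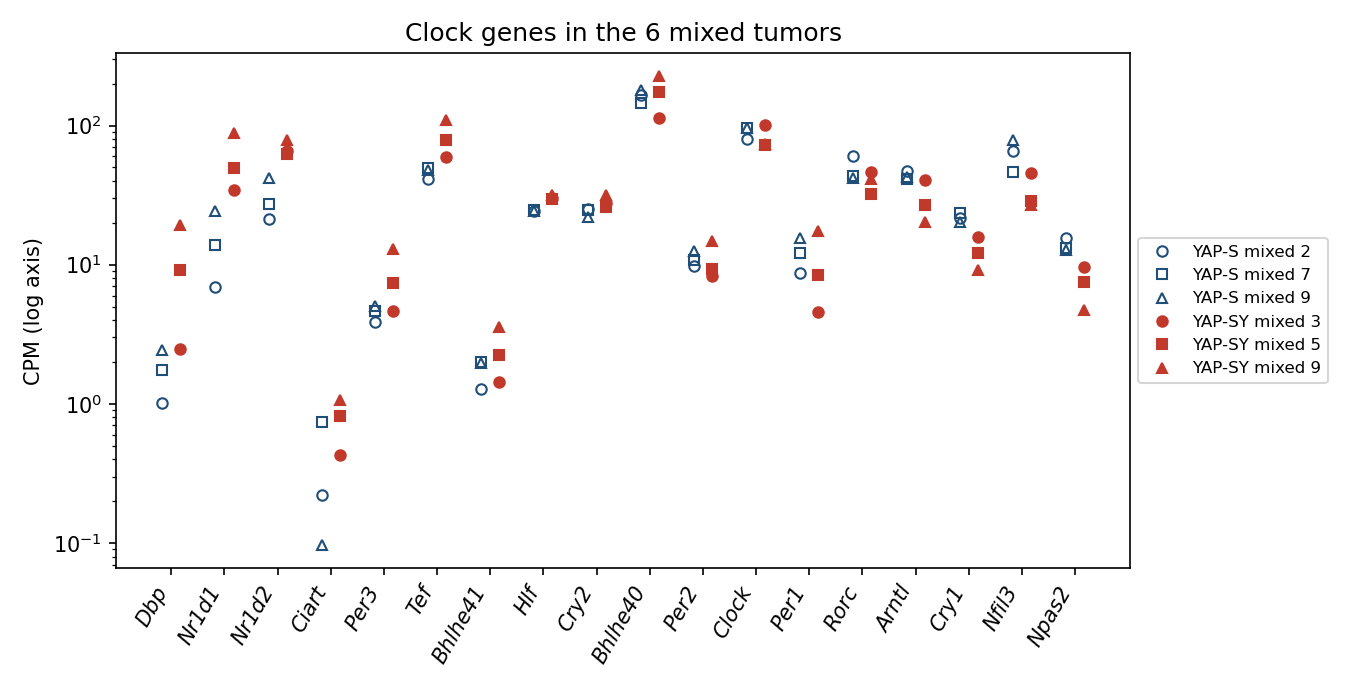
CPM on a log axis of the 18 clock genes in the 6 mixed tumors, ordered by log2 fold change; open blue marks are YAP-S and filled red marks YAP-SY tumors, one shape per tumor. The red marks lie above the blue ones for Nr1d1 and Nr1d2 and below them for Cry1, Nfil3 and Npas2, and YAP-SY mixed 9 (red triangle) is the extreme in each of these 5.

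CLOCK with ARNTL binds the E-box CACGTG, so this motif was searched in the RefSeq promoters (assembly GRCm38.p6, 250 bases before to 50 after a gene's start). The motif is its own reverse complement, so both strands are covered. It lies in 7.15% of 32851 promoters, in 5 of the 15 clock genes with a promoter in the table, and in 2 of the 10 clock genes whose groups were apart, Tef and Cry1, which lay in opposite directions. Their windows are shown 5′ to 3′ on the gene's strand with the E-box in capitals. The Tef window, the first of 2 in the table, is chr15:81802423-81802722 (plus strand) and the Cry1 window chr10:85185005-85185304 (minus strand). A match is a description of the letters and not a binding site.
Tef: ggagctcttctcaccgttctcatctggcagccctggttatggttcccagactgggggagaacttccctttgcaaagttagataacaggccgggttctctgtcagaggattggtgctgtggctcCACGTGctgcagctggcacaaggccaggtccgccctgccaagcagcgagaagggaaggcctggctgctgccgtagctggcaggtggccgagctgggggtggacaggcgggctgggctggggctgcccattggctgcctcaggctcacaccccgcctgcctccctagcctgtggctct
Cry1: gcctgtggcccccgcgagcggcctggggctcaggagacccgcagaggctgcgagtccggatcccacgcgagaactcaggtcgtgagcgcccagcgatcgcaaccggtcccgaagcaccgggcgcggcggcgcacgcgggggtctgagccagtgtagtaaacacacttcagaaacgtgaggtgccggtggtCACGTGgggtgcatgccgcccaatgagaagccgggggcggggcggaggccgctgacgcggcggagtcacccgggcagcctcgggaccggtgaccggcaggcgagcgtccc

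Acute phase genes, which hepatocytes secrete in inflammation, were lower in YAP-SY for the serum amyloid genes. Of 16 members 15 lay below 0 (median -0.46), 4 had groups apart, all lower (25% against 4.05% of all genes lower), and 4 had an unadjusted p under 0.05 (25% against 1.44% lower). The last 4 became 2 without YAP-S tumor 9 or YAP-SY tumor 9. Saa2 was at 122, 190 and 225 CPM in the YAP-S tumors and 48.8, 15.9 and 33.2 CPM in the YAP-SY tumors, a 5.51-fold lower level (log2 fold change -2.46, SE 0.45, adjusted p 0.703). Saa1 was at 209, 272 and 391.6 CPM against 93.7, 34.7 and 57.6 CPM (-2.23, SE 0.52, 4.7-fold lower, adjusted p 0.999). In both genes every YAP-SY tumor lay below every YAP-S tumor, with YAP-SY tumor 5 lowest. Saa3 (7.25, 7.72 and 7.57 CPM against 3.79, 4.25 and 3.73 CPM) and the protease inhibitor Serpina3n (-0.68, SE 0.37) were lower as well. In CCA tumors Saa2 (-2.33, adjusted p 0.00178) and Saa1 (-1.55, adjusted p 0.0297) fell. Of the 16 acute phase genes 7 rose and 4 fell there, against 18.3% and 20.8% of all genes.

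Saa1 and Saa2 are neighbours on chromosome 7 (46740501 to 46742980 and 46751833 to 46754314) and near copies of each other. Their longest coding transcripts in the GENCODE vM21 annotation (609 and 652 bases) were identical in 87.3% of 655 aligned columns, so the authors' counting may have split reads between them, and the 2 values are not independent. Their RefSeq promoters, chr7:46742931-46743230 (minus strand) and chr7:46751583-46751882 (plus strand) of GRCm38.p6, were identical in 95.3% of 301 columns. They are shown because both genes lay lower together, 5′ to 3′, with the bases that differ in capitals.
Saa1: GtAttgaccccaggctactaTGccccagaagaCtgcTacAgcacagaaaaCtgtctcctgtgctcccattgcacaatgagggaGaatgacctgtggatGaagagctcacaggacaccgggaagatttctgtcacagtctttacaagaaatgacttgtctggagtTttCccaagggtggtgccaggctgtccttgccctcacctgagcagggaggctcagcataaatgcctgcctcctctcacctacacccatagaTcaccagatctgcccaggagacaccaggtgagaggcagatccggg
Saa2: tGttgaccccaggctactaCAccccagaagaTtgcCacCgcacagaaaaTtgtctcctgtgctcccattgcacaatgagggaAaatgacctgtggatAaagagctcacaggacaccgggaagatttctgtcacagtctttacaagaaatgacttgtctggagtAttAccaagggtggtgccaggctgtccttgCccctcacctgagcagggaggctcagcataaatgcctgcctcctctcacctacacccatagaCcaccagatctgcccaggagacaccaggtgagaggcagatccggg

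Chaperones of the endoplasmic reticulum and mitotic genes lay below 0 as well. Of 20 stress and unfolded protein genes 16 lay below 0 (median -0.41) and 3 had groups apart, all lower (15% against 4.05% of all genes). Creld2, a secreted stress protein, was at 84.3, 50.2 and 85.1 CPM in the YAP-S tumors and 37.6, 20.4 and 29 CPM in the YAP-SY tumors (-1.34, SE 0.51), and the co-chaperones Sdf2l1 (-1.04, SE 0.35) and Dnajb9 (-0.73, SE 0.24) had groups apart too. Outside the list, Syvn1, a ubiquitin ligase that clears misfolded proteins, was at 135, 88.5 and 150 CPM against 52, 47.2 and 66.1 CPM (-1.18, SE 0.38). The 4 members with an unadjusted p under 0.05 (20%, all lower, against 1.44%) became 1 without YAP-S tumor 2 and 2 without YAP-S tumor 9. In CCA tumors the list's median was 0.08.

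All 20 G2 and M phase genes lay below 0 in mixed tumors, with a median of -0.43, and 3 had groups apart (15% against 4.05% lower). They were Cdk1, the kinase of mitotic entry (28.5, 44.5 and 28.4 CPM in the YAP-S tumors, 22.9, 25.6 and 19.4 CPM in the YAP-SY), its cyclin Ccnb1 (-0.55, SE 0.19) and Cdc20 (-0.60, SE 0.22), which activates the enzyme of mitotic exit. The summed level was 431, 700 and 463 CPM in the YAP-S tumors and 391, 540 and 306 CPM in the YAP-SY tumors, which overlap, since YAP-SY tumor 5 lay above YAP-S tumors 2 and 9. An unadjusted p under 0.05 in 6 members (30% against 1.44% lower) became 0 without YAP-S tumor 7 or YAP-SY tumor 9, 3 without YAP-SY tumor 3, 11 without YAP-S tumor 2 and 13 without YAP-SY tumor 5. In CCA all 20 fell (median -1.13, against 20.8% of all genes). The difference passed for 1 of the 20, above 0, against 10.2% of all genes above 0. Mki67, a marker of dividing cells, overlapped between the groups (-0.24, SE 0.25).

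Cytochrome P450 genes, which oxidise drugs, steroids and fatty acids, lay above 0 in 17 of 19, with a median of 0.37 against 1.27 in CCA, and 3 had groups apart (15.8% against 4.3% higher). Cyp4a14, a fatty acid hydroxylase, was at 99.2, 76.5 and 48.9 CPM in the YAP-S tumors and 222, 174 and 346 CPM in the YAP-SY tumors (1.72, SE 0.46, 3.3-fold). Its relative Cyp4a10 overlapped between the groups (0.81, SE 0.25), and Cyp2a5 (0.995, SE 0.32) and Cyp2b10 (1.31, SE 0.58) did not. In CCA tumors Cyp4a14 (2.03, adjusted p 0.00459), Cyp4a10 (2.05, adjusted p 0.000198) and Cyp2a5 (1.22, adjusted p 0.00968) rose. The 5 P450 genes with an unadjusted p under 0.05 (26.3% against 1.57% higher) became 2 without YAP-SY tumor 9, 3 without YAP-S tumor 2, 11 without YAP-SY tumor 5 and 8 with limma-voom. Of 18 hypoxia response genes 8 lay above and 10 below 0, with a median of -0.06, and 2 had groups apart (11.1% against 8.35% of all genes). These were Ndrg1 (-0.81), at 115, 242 and 129 CPM against 83.2, 97.1 and 96.1 CPM, and P4ha2 (-0.52). The 2 hypoxia genes with an unadjusted p under 0.05 became 0 without YAP-S tumor 7, 1 without YAP-S tumor 9, 4 without YAP-SY tumor 9 and 5 without YAP-S tumor 2.

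**Figure D5:**
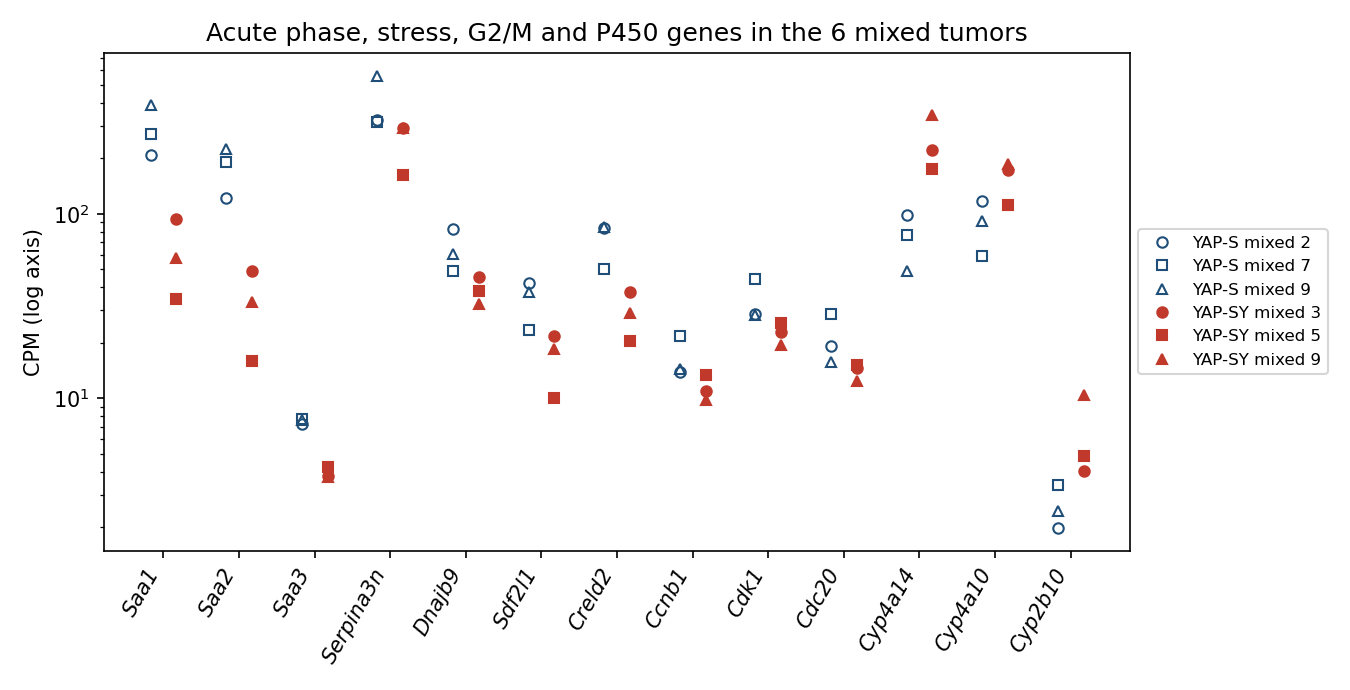
CPM on a log axis of 13 acute phase, stress, G2/M and P450 genes in the 6 mixed tumors; open blue marks are YAP-S and filled red marks YAP-SY tumors, one shape per tumor. The red marks lie below the blue ones from Saa1 to Cdc20 and above them for Cyp4a14 and Cyp2b10, while those of Cyp4a10 overlap. Those from Saa1 to Cdc20 were drawn because their groups were apart, as in 4 of 16 acute phase, 3 of 20 stress and 3 of 20 G2/M genes. The other members of these lists overlapped.

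By log2 fold change, the 10 highest and 10 lowest genes with groups apart and at least 5 CPM in the higher group gave values that did not pass the threshold. At the high end stood Clec2h, a lectin-like ligand of lymphocyte receptors, at 2.12, 4.02 and 2.07 CPM in the YAP-S tumors and 11.1, 17.5 and 23.2 CPM in the YAP-SY tumors (2.65, SE 0.57, 6.26-fold). Others were Dbp, Nr1d1, Nr1d2, Cyp4a14 and Cyp2b10 (above), the imprinted fetal RNA H19 (2.37, SE 0.79, led by YAP-SY tumor 9 at 11.9 CPM), the peroxisomal fatty acid transporter Abcd2 (1.59, SE 0.35) and the interferon-induced GTPase Gbp11 (1.63, SE 0.55). The tenth, a second gene model spelled GBP11, overlaps Gbp11 on chromosome 5, and their reads cannot be told apart.

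The low end held Saa2, Saa1, Creld2, Sdf2l1 and Syvn1 (above) and the transcription factor Zbtb16, at 35.4, 16.4 and 33.8 CPM in the YAP-S tumors and 9.21, 7.12 and 5.05 CPM in the YAP-SY tumors (-2.01, SE 0.42, 4.02-fold lower). It also held Ccrn4l (-1.35), the deadenylase nocturnin, whose RNA cycles daily, Akr1c18 (-1.22), a steroid reductase, and Ppard (-1.09), a nuclear receptor for fatty acids. In CCA, 9 of these 20 genes were called (45%, against 39.1% of all genes), each in the direction seen in mixed tumors. The difference passed for 0 of the 20 (against 15.2% of all genes); the 20 were picked by their effect in mixed tumors, so nothing is read from this count. Clec2h (3.01, adjusted p 0.00165) and Abcd2 (2.33, adjusted p 0.000516) rose and Ppard (-1.39, adjusted p 0.00184) fell there.

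DESeq2's Wald test called 4 genes higher and 7 lower in mixed tumors. The higher ones were Clec2h (2.65, adjusted p 0.000827), Abcd2 (1.59, adjusted p 0.0182), the splicing factor Srsf5 (0.52, adjusted p 0.0415) and D630039A03Rik (0.82, adjusted p 0.0238). Among the lower ones were Bhlha15, a transcription factor of secretory cells that fell by 2.47 on the log2 scale (adjusted p 2.85e-05), Saa2 (-2.46, adjusted p 2.85e-05), Zbtb16 (-2.01, adjusted p 0.00257) and Gmppb (-0.82, adjusted p 0.000827), an enzyme of sugar donor synthesis. The others were the selenium-binding protein gene Selenbp2 (-0.83), the cyclin Ccnf (-0.74) and Gm8186 (-1.18). Bhlha15 was at 3.05, 1.43 and 1.62 CPM in the YAP-S tumors and 0.333, 0.443 and 0.327 CPM in the YAP-SY tumors. By edgeR the adjusted p of these 11 was 0.665 or higher. In CCA tumors edgeR called 9 of the 11 (81.8% against 39.1% of all genes), 8 in the same direction. Each fit estimates a gene's spread from mixed and CCA tumors together, so a gene of low spread is favoured in both contrasts. All tested genes are thus no fair background for these 11, and nothing is read from the 81.8%. The difference passed for 2 of the 11 (18.2% against 15.2%), Selenbp2 (-1.30, adjusted p 0.0101) and Gm8186 (-1.94, adjusted p 0.00744). Both lay above 0 in CCA, where Gm8186 was called (0.76, adjusted p 0.0338) and Selenbp2 was not (0.47, adjusted p 0.0642). These genes were named for the DESeq2 call after their values were seen.

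Against the CCA contrast the mixed contrast was smaller. Over the genes of at least 5 CPM the median absolute log2 fold change was 0.12, against 0.45 in CCA. The 3813 genes that fell in CCA had a median of -1.46 there and -0.03 in mixed tumors, and the 3358 that rose had 0.75 and 0.10. Both sets were picked by their effect in CCA, so nothing is read from their smaller medians in mixed tumors. Of the 7171 CCA calls 64.2% had the same sign in mixed tumors. The same-sign share over all tested genes was not computed, so nothing is read from this one. The test of the difference between the effects called 2788 genes (15.2%), 1868 above 0 (67% of the calls) and 920 below. With library size alone as the scale it called 4330, with 96.5% above 0, and the median difference of all genes moved by 0.51 on the log2 scale. Without YAP-S mixed tumor 2 the count was 1058, without YAP-S mixed tumor 9 1564, and without YAP-S CCA tumor 5 1323. Among the calls 28 were not CCA calls.

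The largest differences above 0 were in genes that fell in CCA and overlapped in mixed tumors. Wisp2, a secreted relative of Ctgf, was at 4.22, 9.8 and 6.54 CPM in the YAP-S tumors and 5.22, 4.12 and 23.1 CPM in the YAP-SY mixed tumors, and fell from a mean of 48.4 to 1.73 CPM in CCA. The others were Sncg, Prss35, the matrix genes Fbln2 and Cspg4, the secreted protease inhibitor Wfdc18, Flnc, which encodes a filamin, and Efhd1. Their mixed effects ran from 0.21 to 1.69. In Sncg, Prss35, Fbln2 and Flnc the tumors of each group were themselves spread widely, as in Flnc with 1.37, 10.3 and 9.52 CPM in the YAP-S tumors and 8.95, 2.15 and 16.3 CPM in the YAP-SY tumors.

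Below 0 the largest differences were Moxd1, 6 major urinary protein (Mup) genes and the keratin Krt4. Moxd1, an enzyme related to dopamine hydroxylase, was at 15.8, 0.182 and 50.3 CPM in the YAP-S tumors and 1.9, 0.228 and 0.622 CPM in the YAP-SY mixed tumors, so 1 YAP-S tumor lay below every YAP-SY tumor. Of 21 tested Mup genes, whose products carry pheromones in urine, 17 lay below 0 in mixed tumors (median -0.58). Their groups were apart in 0, against 8.35% of all genes. In CCA tumors all 21 lay above 0 (median 1.79) and 17 were called, against 18.3% of all genes called higher there. Their summed level was 16228, 9075 and 15022 CPM in the YAP-S tumors and 14827, 6132 and 12285 CPM in the YAP-SY mixed tumors. Mup genes are near-identical copies, so values of single members are uncertain. Mup17 was at 671, 91.3 and 599 CPM against 187, 36.8 and 117 CPM (-2.00, SE 0.72), with YAP-S tumor 7 below YAP-SY tumors 3 and 9.

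The genes that varied most over the 6 mixed tumors, at a mean of at least 20 CPM, included Saa1 and Saa2, whose groups were apart. Apart from these and Mup genes they were Krt19 (above), Cxcl9, Ubd, Tmem45a, Mt2 and Afp. Cxcl9, an interferon-induced attractant of T cells, was at 176 CPM in the YAP-SY tumor 5 and 8.48 to 39.1 CPM in the other 5. Ubd, a ubiquitin-like protein induced by interferon, was at 93 CPM there and 4.49 to 19.5 CPM elsewhere, and Tmem45a at 58.5 CPM against 3.99 to 33.9 CPM. Mt2, a metal-binding protein, was lowest in YAP-SY tumor 3 (7.82 CPM) and highest in YAP-S tumor 9 (82.4 CPM). Afp, a fetal liver protein, was at 2.4 CPM in YAP-S tumor 9 and 17.1 to 39 CPM in the other 5. In Krt19 and these 5 genes the groups overlapped.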

How the data were processed

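RNA from tumor nodules was sequenced after TruSeq mRNA library preparation, per the labels' protocols. The deposited table holds whole-number counts per gene that the authors had corrected before deposit, in a way not given in the sources used here. STAR and mm10 are named in the submitters' processing notes; the counting tool and strand setting are not given in the sources used here. Of 43346 genes, 27 symbols changed into dates were restored from Ensembl identifiers. A separate cell line table was not used, nor its 3 columns that matched no sample label.

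Groups came from the genotype labels. All 12 tumors (4 groups of 3) entered 1 fit in edgeR 4.0.16 (R 4.3.3) with filterByExpr by group, TMM scaling, glmQLFit and glmQLFTest, with no covariate. Contrasts were YAP-SY against YAP-S in mixed tumors, the same in CCA tumors, and their difference, with Benjamini-Hochberg adjustment over 18318 genes. CPM refers to TMM-scaled libraries. Intervals are log2 fold change and SE with the fit's t quantile (95%). The script was tested on simulated data. Alternatives were other scaling factors, DESeq2 1.42.0, limma 3.58.1 voom, other filters, the 6 mixed tumors alone and each tumor left out.

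Named genes are the 10 highest and 10 lowest with groups apart, a panel of 23, the 8 largest differences each way, the 3 smallest p of each list and the 12 most variable; not every one is printed, 1 of the 10 lowest is not reported here, and members with groups apart or an unadjusted p under 0.05 are named beyond it. The contrast that sets the members, and the gene lists, were chosen with earlier results of these data known; tumors entered it by label. Promoters are RefSeq's (GRCm38.p6), gene coordinates are those deposited with the counts (mm10), and the Saa1 and Saa2 transcripts are from GENCODE vM21.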

Additional observations from a re-analysis of the deposited data

Results flagged for a closer look

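The results below were marked because the effect of YAP-SY against YAP-S differed between mixed and CCA tumors by the test of that difference in edgeR, with Benjamini-Hochberg adjustment. Each value is the log2 fold change in mixed tumors minus that in CCA tumors. No explanation was tested for any of them.

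The test called 2788 genes. In the panel the YAP targets had differences of 2.24 (Ctgf), 1.26 (Cyr61) and 3.58 (Ankrd1). The tyrosine kinase gene Src had 1.91, the bile duct factor Sox9 2.12 and the Notch target Hes1 1.05. Stromal genes had 3.17 (Col1a1), 2.42 (Acta2) and 2.52 (Vim). The white blood cell gene Ptprc had 1.55 and lost its call in 7 of 12 leave-outs of a tumor and with limma-voom. The hepatocyte genes Alb and Hnf4a had -1.26 and -1.21, and Hnf4a lost its call under library size alone.

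The largest differences above 0 were 5.48 (Wisp2), 5.34 (Sncg), 4.67 (Prss35), 4.54 (Fbln2), 4.5 (Cspg4), 4.47 (Wfdc18), 4.47 (Flnc) and 4.45 (Efhd1). Of these Prss35 lost its call in 10 of 12 leave-outs, Flnc in 6 and Sncg in 1 (without YAP-S mixed tumor 2).

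The largest below 0 were -11.65 (Moxd1), -4.17 (Mup17), -3.77 (Mup18), -3.74 (Mup15), -3.45 (Mup16), -3.34 (Mup9), -2.68 (Mup2) and -2.65 (Krt4). Moxd1 lost its call with limma-voom (-5.9). The calls of the Mup genes were lost in 2 leave-outs (Mup17 and Mup18) to 9 (Mup15), among them in each case that without YAP-S mixed tumor 2.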

How the results depend on the processing

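The count of 0 genes called in mixed tumors held under the other settings and in all 6 leave-outs, except that DESeq2's Wald test called 11 (4 higher, 7 lower). The difference between mixed and CCA effects called 4330 genes under library size alone (4180 above and 150 below 0) and 4231 by DESeq2 (1704 below 0). Leaving out single tumors gave 1058 to 3077 calls, 856 to 2031 above and 201 to 1046 below 0; the total was smaller by over 1.5 times without YAP-S mixed tumor 2 (1058) or 9 (1564), YAP-SY mixed tumor 5 (1749) and YAP-S CCA tumors 4 (1744) and 5 (1323). In CCA, library size alone gave 760 higher and 8064 lower, and leave-outs gave 2090 to 3278 higher, the lowest without YAP-S CCA tumor 5. The cause was not tested. No paired analysis was possible because the mixed groups share only the number 9.

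Values near 0 in mixed tumors changed sign, none of them called. With limma-voom these were Akt1 (0.124), Sox9 (-0.047) and Cdh1 (-0.215), and under library size alone Cdh1 (-0.0108). When single mixed tumors were left out, the log2 fold change ran from -0.589 to 0.453 (Akt1), -0.402 to 0.0737 (Src), -0.369 to 0.405 (Sox9), -0.302 to 0.729 (Krt19), -0.45 to 0.692 (Krt7), -0.74 to 0.292 (Spp1), -0.747 to 0.26 (Epcam), -0.257 to 0.0467 (Hnf4a), -0.661 to 0.127 (Col1a1), -0.491 to 0.0455 (Acta2), -0.401 to 0.11 (Vim), -0.152 to 0.584 (Ptprc) and -0.431 to 0.249 (Cdh1). Of the differences, Yap1 (0.288) and Glul (0.216) changed sign under library size alone, and Afp ran from -0.579 to 1.79 over the leave-outs. DESeq2 gave no adjusted p for 1 of the differences (Prss35).

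Libraries held 30656499 counts or more, and the intervals come from the spread between 3 nodules per group as the fit estimates it.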
